A study of Mus musculus with 32 samples.

Results

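This comparison concerned sorted donor CD4 conventional T cells recovered from the spleen and lymph nodes of transplanted mice, 4 libraries from allogeneic hosts against 3 from syngeneic hosts. These 7 libraries, of 31 in all, were assigned to their groups by their labels, as the CD4 cells of hosts that received no regulatory T cells. The donors were C57Bl6 mice. In the allogeneic arm the hosts were Balb/c mice, which differ from the donor at the major histocompatibility complex, and the labels call these hosts GVHD, untreated. The syngeneic control hosts carry no such mismatch, and their strain is not spelled out. The sample labels place both groups at day 6, whereas the series' design text gives day 8. Cells of both arms came from 2 experiments, named JL019 and JL027: allogeneic replicates JL019-1, JL019-2, JL027-1 and JL027-2, and syngeneic replicates JL019-1, JL019-2 and JL027. CD4 cells taken before transfer (day 0, 1 library per experiment) give a starting level. Values per library are given in the order just listed. Neither the animals' age nor how they were conditioned is given in the sources used here. Nothing says whether a library is 1 mouse or a pool, so that p-values measure a spread between libraries. For the gene tests this spread was estimated over all 31 libraries, not over the 7 compared alone.

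Acute graft-versus-host disease starts when donor T cells recognise foreign histocompatibility molecules in the host, divide in lymphoid organs and then leave for the gut, liver and skin. CD4 T cells that meet antigen lose the homing receptors of naive cells and take on helper programmes: Th1 cells, directed by T-bet and interleukin-12, make interferon-gamma, and Th2 cells, directed by GATA3, make interleukin-4. A syngeneic host presents no foreign histocompatibility molecule, yet transferred T cells can divide there too where the host is short of lymphocytes.

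The values are the authors' normalised counts, and differences are in log2(value + 1), allogeneic minus syngeneic, with a standard error (SE) from a limma fit over all 31 libraries. A gene is called where the Benjamini-Hochberg adjusted p of that fit, over 16741 genes, is under 0.05. The syngeneic library JL019-2 stood apart. Its Cd4 value was 1659, against 16530 and 14580 in the other syngeneic libraries and 16710 to 21480 in the allogeneic ones, and its Cd8a value was 1956, against 16.4 to 114 in the other 6. Myeloid markers (19 genes) made up 15.9% of its total, against 0.558% and 0.513% in the other syngeneic libraries and 0.0369% to 0.0657% in the allogeneic ones, and erythroid markers (14 genes) made up 1.52%, against 0.0412% and 0.106% and against 0.00755% to 0.0471%. Its correlation with the other syngeneic libraries across genes was 0.887 and 0.883, where those 2 correlated at 0.973 and the allogeneic libraries at 0.966 to 0.974. Counts of calls and the genes described in full are therefore given with and without it, and "in both fits" means called in the same direction with and without that library. Other genes said to have risen or fallen were called in both fits unless stated. The other 2 syngeneic libraries still held more myeloid RNA than the allogeneic ones: without JL019-2, 13 of 19 myeloid and 7 of 14 erythroid markers were called lower in allogeneic cells, as were Cd8a (log2 difference -1.39, limma adjusted p = 0.0251) and Cd8b1 (-1.08, limma adjusted p = 0.0245). The part of these cells in the results was not tested. In bulk RNA, fewer cells with a transcript and less of it per cell cannot be told apart.

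Allogeneic and syngeneic CD4 cells differed at 2445 genes, of which 1120 (6.69% of all tested) were higher and 1325 (7.91%) lower in allogeneic hosts. Without syngeneic JL019-2, 905 (5.41%) were higher and 912 (5.45%) lower. In both fits 717 genes (4.28%) were higher and 760 (4.54%) lower, and none had opposite calls. These shares of all genes are the background for each count of list members below. The 4 allogeneic libraries lay above all 3 syngeneic libraries at 1823 genes (10.9%) and below them at 2054 (12.3%). Centring each library on its median gave 1441 higher and 1042 lower in place of 1120 and 1325. With only the 7 libraries in the fit, 1101 genes were called, and with these less JL019-2, a choice made after seeing the data, 2858.

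**Figure D1:**
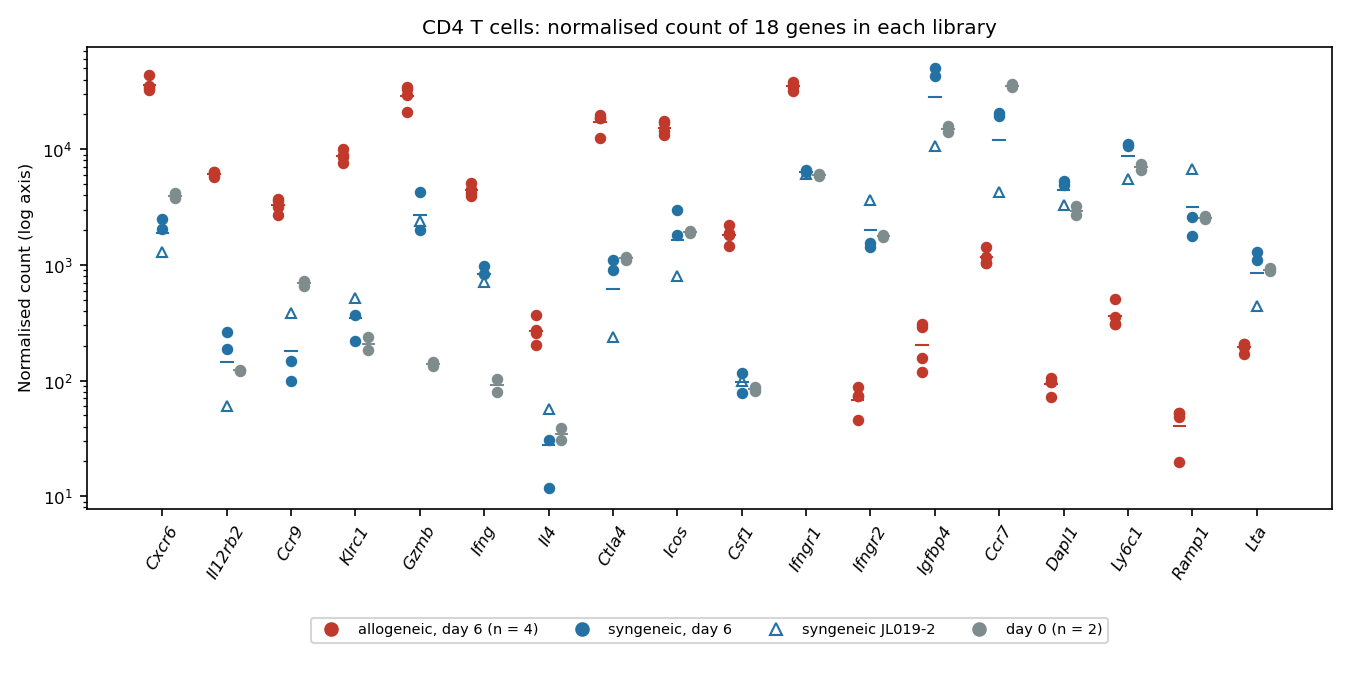
Normalised counts (log axis) of 18 genes in CD4 cells from allogeneic hosts (red, 4 libraries), syngeneic hosts (blue, 3 libraries, with JL019-2 as an open triangle) and before transfer (grey, 2 libraries). Short lines are means taken on the log2(value + 1) scale; for each of the 18 genes the red points lie wholly above or wholly below the blue ones.

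The genes that rose with the lowest p were led by Cxcr6, a chemokine receptor of effector T cells that reside in tissues. Its value was 35510, 32280, 43960 and 33940 in the allogeneic libraries and 2496, 1294 and 2040 in the syngeneic ones, with 4175 and 3761 at day 0. Each allogeneic library was thus far above each syngeneic one, and the syngeneic level was below the day 0 level. The log2 difference was 4.27 (SE 0.217, limma adjusted p = 3.92e-13), a 19.3-fold difference, and it was called without JL019-2 too (limma adjusted p = 1.95e-12). Klrc1, which encodes the NKG2A receptor of killer cells, was also higher in each allogeneic library than in each syngeneic one, with 8518, 8947, 10020 and 7642 against 365, 521 and 220 (log2 difference 4.65, SE 0.266, limma adjusted p = 1.53e-12, and 4.94 without JL019-2).

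Several of the next genes encode serine protease inhibitors. Serpina3f had 3969 to 4763 in allogeneic and 198 to 255 in syngeneic libraries, Serpinb6b had 9769 to 11940 against 562 to 1044, and Serpina3g had 12270 to 16530 against 1606 to 2028. Serpina3 and Serpinb6 genes have near-identical copies, and how reads shared between copies were divided is not given in the sources used here. Sytl3, a protein of vesicle traffic, rose by 3.50, and Ncald, a calcium sensor, by 2.94. Art2a, an enzyme on the T cell surface, rose by 4.69 and Sv2c, known from synaptic vesicles, by 4.72. Calca, the gene of calcitonin and of calcitonin gene-related peptide, had 232, 319, 159 and 160 in allogeneic cells and 1.77, 1.38 and 0 in syngeneic ones. Its fitted difference depends on the pseudocount, since the syngeneic values are near 0. Ramp1, a subunit of the receptor for that peptide, moved the other way, with 52.1, 19.7, 52.5 and 48.0 against 2594, 6683 and 1792 (log2 difference -6.25, SE 0.487, limma adjusted p = 4.11e-10, and -5.71 without JL019-2). Day 0 cells had 2632 and 2487 of Ramp1, close to the syngeneic libraries other than JL019-2.

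Among genes that fell, Igfbp4, a secreted binding protein of insulin-like growth factors, had the lowest p. It had 305, 288, 119 and 157 in allogeneic and 50390, 10630 and 43030 in syngeneic libraries, so that even the lowest syngeneic library was far above the highest allogeneic one. Day 0 cells had 15920 and 14210, above syngeneic JL019-2 and below the other syngeneic libraries. The log2 difference was -7.13 (SE 0.383, limma adjusted p = 7.59e-13), and -7.84 without JL019-2. Jaml, an adhesion molecule, had 142 to 235 against 2327 to 2787, with 316 and 320 at day 0. Dntt, which adds nucleotides to receptor joints in developing lymphocytes, had 1.02 to 2.94 in allogeneic and 464, 1120 and 304 in syngeneic cells. Atp1b1, a subunit of the sodium pump, had 22.7 to 31.9 against 795 to 1906, and Ampd1, an AMP deaminase, had 9.24 to 18.4 against 269 to 574. Rflnb, a regulator of filamin, fell by 2.76.

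**Figure D2:**
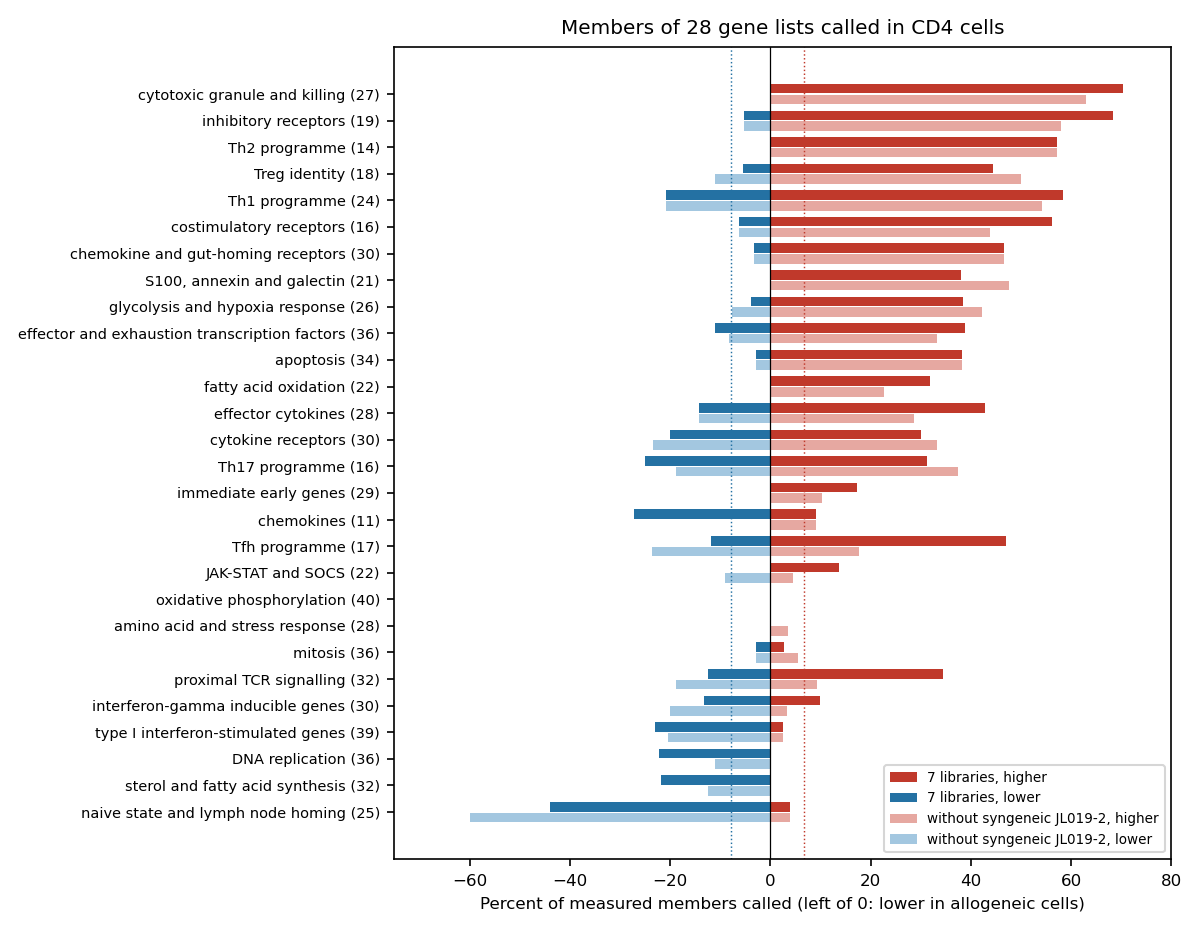
Percent of the measured members (number in brackets) of 28 gene lists that were called higher (right) or lower (left) in allogeneic CD4 cells, with all 7 libraries (dark bars) and without syngeneic JL019-2 (pale bars). Dotted lines give the share of all genes called higher (6.69%) and lower (7.91%); with all libraries the bars for killing, inhibitory receptors and Th1 genes extend farthest to the right, and the list of naive genes extends farthest to the left.

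Among genes of the naive state and of homing to lymph nodes, those called were lower with 1 exception. Of 25 measured, 11 were called lower and 1 higher, with a median log2 difference of -0.64 against -0.00 over all genes. Without JL019-2, 15 were lower and 1 higher, with a median of -1.20. Ccr7, the chemokine receptor that guides lymphocytes into lymph nodes, had 1177, 1048, 1036 and 1416 in allogeneic cells and 19450, 4246 and 20490 in syngeneic cells. The groups did not overlap, and day 0 cells were higher than both, at 36620 and 34190. Its log2 difference was -3.36 (SE 0.416, limma adjusted p = 1.53e-06), and -4.10 without JL019-2. Dapl1, a gene of resting T cells, fell by 5.56 (71.9 to 106 against 3317 to 5275). Bach2, a repressor of effector genes, fell by 2.51 and Id3 by 2.02.

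Some transcription factors of naive and memory T cells were called without JL019-2 only. Tcf7, which encodes TCF1, had 5629, 5409, 4203 and 7862 in allogeneic libraries and 21960, 2423 and 17820 in syngeneic ones. JL019-2 was below every allogeneic library and the other 2 were above them. The log2 difference was -0.80 with all libraries (limma adjusted p = 0.329) and -1.81 without JL019-2 (limma adjusted p = 0.00139). Lef1 and Foxo1 gave -1.05 and -1.38 without it, both called, against -0.37 and -0.57 with it. Klf2 and S1pr1, which encode a factor and a receptor for leaving lymphoid organs, were called in neither fit. The 1 list member that rose was Il7r, the receptor of the survival cytokine interleukin-7, with 13520, 12100, 10540 and 8734 against 2490, 1402 and 4538, and 8523 and 8355 at day 0.

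Of 24 measured Th1 genes, 14 were called higher and 5 lower, and 13 and 4 in both fits (median log2 difference 1.46). Tbx21, which encodes T-bet, had 4927, 4672, 3434 and 4415 against 1346, 312 and 845 (log2 difference 2.61, SE 0.393, limma adjusted p = 2.66e-05, and 2.02 without JL019-2). Ifng, the gene of interferon-gamma, had 3919, 4203, 5070 and 4537 against 970, 713 and 837, with 80.1 and 103 at day 0. The syngeneic libraries thus lay between day 0 and the allogeneic ones. Its log2 difference was 2.40 (SE 0.319, limma adjusted p = 4.69e-06, and 2.29 without JL019-2). Il12rb2, the signalling chain of the interleukin-12 receptor, had the largest difference of the list with all libraries: 6022, 5760, 6386 and 6355 against 186, 60.1 and 265 (log2 difference 5.40, SE 0.537, limma adjusted p = 4.93e-08, and 4.78 without JL019-2). Both chains of the interleukin-18 receptor rose, Il18rap by 2.53 and Il18r1 by 1.95, as did Stat4, which carries the interleukin-12 signal, by 1.87. Cxcr3, a receptor for chemokines that interferon-gamma induces, had 7825 to 8803 against 1376 to 2696.

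The members of the Th1 list that fell were Ly6c1, Ifngr2, Lta, Tnf and, with all libraries only, Hlx. Ifngr2 encodes the second chain of the interferon-gamma receptor. It had 88.1, 73.8, 73.6 and 45.6 in allogeneic cells and 1537, 3640 and 1437 in syngeneic cells, with 1753 and 1806 at day 0 (log2 difference -4.85, SE 0.373, limma adjusted p = 3.33e-10, and -4.42 without JL019-2). Ifngr1, the ligand-binding chain, moved in the opposite direction, with 38130, 31600, 35690 and 34830 against 6337, 6119 and 6598 (log2 difference 2.46, SE 0.189, limma adjusted p = 3.33e-10, and 2.44 without JL019-2). Neither gene's groups overlapped. Lta, the gene of lymphotoxin-alpha, had 169 to 207 against 1283, 445 and 1112, Tnf had 376 to 584 against 1286, 2379 and 741, and Ltb fell by 1.28. Ly6c1, a surface marker with a near-identical copy, fell by 4.58, and that copy, Ly6c2, had a value of 81360 in syngeneic JL019-2 against 2714 to 6883 in the other 6 libraries.

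Promoter sequences of Ifng and Il12rb2 are shown because both genes rose and are known targets of STAT factors. Each window runs from 250 bases before the start of the RefSeq gene to 50 bases after it (GRCm38.p6). Ifng lies at chr10:118440796-118441095 on the plus strand and Il12rb2 at chr6:67376139-67376438 on the minus strand. Capitals mark matches to TTCNNNGAA, the GAS element that STAT dimers bind, on either strand. The sequences are given 5′ to 3′ along the gene.
Ifng: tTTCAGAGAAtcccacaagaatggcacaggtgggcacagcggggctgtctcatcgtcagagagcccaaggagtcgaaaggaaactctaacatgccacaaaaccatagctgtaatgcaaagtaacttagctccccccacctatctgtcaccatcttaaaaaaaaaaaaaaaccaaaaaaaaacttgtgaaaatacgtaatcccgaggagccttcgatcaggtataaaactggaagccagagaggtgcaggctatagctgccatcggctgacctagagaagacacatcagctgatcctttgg
Il12rb2: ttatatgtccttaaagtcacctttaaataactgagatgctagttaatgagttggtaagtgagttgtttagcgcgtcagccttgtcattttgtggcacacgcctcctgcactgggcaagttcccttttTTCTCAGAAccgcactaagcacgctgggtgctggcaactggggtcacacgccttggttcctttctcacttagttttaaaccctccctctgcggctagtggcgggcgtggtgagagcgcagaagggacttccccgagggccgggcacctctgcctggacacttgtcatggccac
Over 27025 RefSeq promoters of this length, 8.47% held the GAS letters. The share was 7.78% (41 of 527) for genes higher in both fits, 8.17% (47 of 575) for genes lower in both fits and 7.30% for the 11718 promoters that matched a gene of the table by symbol. TGANTCA, the AP-1 element, which reads the same on both strands, was in 9.30% (49 of 527), 5.91% (34 of 575) and 5.56% of these promoters, and in 7.93% of all 27025. TGGAAA, a core letter run of NFAT sites, was in 21.8%, 20.7% and 18.2%, with 21.5% of all, and TCACACC, the core of the T-box element, in 3.04%, 4.0% and 3.52%, with 3.96% of all. The Ifng and Il12rb2 windows held neither the AP-1 nor the T-box letters. These shares are counts of letters, and nothing follows from them about binding.

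Of 14 measured Th2 genes, 8 were called higher and none lower, and 7 were higher in both fits (median log2 difference 1.97). Il4 had 201, 275, 369 and 256 against 11.9, 56.7 and 30.8, with 38.9 and 30.5 at day 0 (log2 difference 3.23, SE 0.457, limma adjusted p = 1.17e-05, and 3.74 without JL019-2). Gata3 had 9368, 9002, 5887 and 8029 against 3220, 449 and 2022 (log2 difference 2.47, SE 0.383, limma adjusted p = 3.92e-05, and 1.64 without JL019-2). Maf rose by 2.53, Il1rl1, the interleukin-33 receptor, by 3.37, and Il17rb, the interleukin-25 receptor, by 2.85. The call of Il13 was lost without JL019-2 (limma adjusted p = 0.0611).

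Of 16 measured Th17 genes, 5 rose and 4 fell, 5 and 3 in both fits. Ccr6, a receptor of Th17 cells, had 6.30 to 42.3 against 68.0 to 357. The members that rose (Cxcr6, Ahr, Batf, Rora and Csf2) are also used by other effector cells. Of 17 measured genes of follicular helper cells, 8 rose and 2 fell with all libraries, but 3 rose and 4 fell without JL019-2. Bcl6, their lineage factor, was called in neither fit (204 to 276 against 159 to 203), although its groups did not overlap. Il21, their main cytokine, had 477, 489, 964 and 834 against 294, 30.8 and 236, and its adjusted p went from 0.00743 to 0.133 (limma) without JL019-2.

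Foxp3, the lineage factor of regulatory T cells, was called in neither fit. It had 579, 367, 337 and 470 in allogeneic cells, 490, 44.9 and 905 in syngeneic cells and 1145 and 978 at day 0. Of 18 measured genes used to identify regulatory T cells, 8 rose and 1 fell in both fits. The members that rose (Ctla4, Nrp1, Tnfrsf9, Tnfrsf4, Entpd1, Il2ra, Tnfrsf18 and Il10) are also known as genes of activated conventional cells. The member that fell, Gpr83, had 11.4 to 20.9 against 199, 41.2 and 270, and 1299 and 1101 at day 0.

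Of 28 measured cytokine genes, 12 rose and 4 fell (8 and 4 in both fits). Csf1, the growth factor of macrophages, had 1820, 2230, 1454 and 1891 against 116, 99.9 and 78.4 (log2 difference 4.22, SE 0.337, limma adjusted p = 6.64e-10, and 4.24 without JL019-2). Csf2, the gene of GM-CSF, had 824, 1045, 1529 and 1176 against 441, 98.3 and 181 (log2 difference 2.48, and 1.98 without JL019-2), and Fasl, the death ligand, rose by 2.64. Il10 had 174 to 301 against 67.4 to 74.1. Il2 was called in neither fit and its groups overlapped, at 50.3, 63.1, 181 and 134 against 207, 76.5 and 102. Of 11 measured chemokines, Ccl1 rose. The calls of Cxcl2, Ccl9 and Xcl1 as lower held with all libraries only, and for Cxcl2 JL019-2 alone had 9381 where the other 6 had 3.79 to 171.

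Of 30 measured genes of chemokine receptors, adhesion molecules and other proteins of T cell homing and retention, 14 were called higher, 1, Ccr6, lower and 15 neither. In both fits 12 were higher and 1 lower. Ccr9, the receptor for the chemokine of the small intestine, had 3577, 3190, 3741 and 2694 against 100, 388 and 147 (log2 difference 4.19, SE 0.334, limma adjusted p = 6.64e-10, and 4.75 without JL019-2). The syngeneic level was below the day 0 values of 730 and 657 and the allogeneic level above them. Itga1 and Itga2, collagen-binding integrin chains, rose by 2.59 and 2.64, and their partner Itgb1 by 2.09 (3.35, 2.20 and 1.66 without JL019-2). Gpr15, a receptor for the colon, had 1068, 971, 1144 and 1073 against 827, 102 and 251. Itga4 and Itgb7, whose product is the gut integrin, were not called in either fit, with Itgb7 at 37450, 29580, 21650 and 28900 against 39280, 9506 and 25860. Itgae, which pairs with Itgb7 in cells of the epithelium, was not called either.

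Of the 28 lists, genes of killing had the largest share called higher: 19 of 27 were higher and none lower, 16 in both fits, with a median log2 difference of 1.47. Gzmb, the gene of granzyme B, had 29290, 20940, 33260 and 34410 against 1996, 2373 and 4272, and 145 and 135 at day 0 (log2 difference 3.41, SE 0.268, limma adjusted p = 5.06e-10, and 3.31 without JL019-2). Gzma had 15510, 10400, 10510 and 7781 against 282, 2612 and 293, the highest syngeneic value being that of JL019-2. Its log2 difference was 4.16, and 5.22 without that library. Serpinb9, an inhibitor of granzyme B, had 17260 to 24090 against 1967, 1025 and 3095. Nkg7, a granule protein, rose by 2.16 and Klrd1, the partner of NKG2A, by 3.11 (2.585 and 3.915 without JL019-2). Prf1, the gene of perforin, had 1865 to 2299 against 1131, 541 and 1157 and was not called without JL019-2 (limma adjusted p = 0.0646). Granzymes and killer lectin-like receptors are families of similar genes, so their single values are uncertain where reads are shared.

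Many inhibitory and costimulatory receptors were higher. Of 19 inhibitory receptors 13 were higher and 1 lower, 11 and 1 in both fits, and of 16 costimulatory receptors 9 were higher and 1 lower, 7 and 1 in both fits. Ctla4 had 18620, 12480, 19860 and 18520 against 907, 239 and 1103 (log2 difference 4.78, SE 0.439, limma adjusted p = 1.03e-08, and 4.09 without JL019-2). Tigit had 4530 to 6965 against 205 to 540, Havcr2, which encodes TIM-3, had 3674 to 5617 against 353 to 721, and Pdcd1, which encodes PD-1, had 8619 to 10570 against 580 to 2016. Icos, a costimulator of effector cells, had 14500, 13250, 16750 and 17430 against 1817, 800 and 3001 (log2 difference 3.23, SE 0.323, limma adjusted p = 5.34e-08, and 2.72 without JL019-2). Tnfrsf4, which encodes OX40, rose by 2.87 and Tnfrsf9, which encodes 4-1BB, by 2.27. The inhibitory receptor that fell, Pilra, is a gene of myeloid cells, and JL019-2 had 6949 of it against 207 and 185 in the other syngeneic libraries and 6.22 to 38.8 in the allogeneic ones.

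Of 36 transcription factors of effector and exhausted cells, 14 rose and 4 fell (12 and 2 in both fits). Prdm1, which encodes Blimp-1, had 2317, 2039, 1724 and 2123 against 348, 153 and 368 (log2 difference 2.91, SE 0.272, limma adjusted p = 1.43e-08, and 2.51 without JL019-2). Bhlhe40, a factor of cytokine-producing cells, had 20180 to 28720 against 1668 to 4667, and Id2, Batf and Hif1a also rose. Tox, a factor of exhausted cells, had 737, 978, 877 and 1254 against 1515, 335 and 1484 and was called in neither fit. Eomes was not called either, at 316 to 431 against 253 to 554.

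Receptors of cytokines moved in both directions, with 9 of 30 higher and 6 lower, 9 and 5 in both fits. Besides the receptors for interleukin-12, interleukin-18 and interleukin-33, Il2ra rose by 2.15 (1.36 without JL019-2) and Il2rb by 2.54 with all libraries. Il6ra, the interleukin-6 receptor, had 148 to 184 against 4388, 998 and 3362 (log2 difference -3.92, SE 0.398, limma adjusted p = 6.68e-08, and -4.57 without JL019-2), and Tgfbr3, a co-receptor of TGF-beta, had 49.2 to 76.3 against 1551, 275 and 1175. Ifnar2, a chain of the type I interferon receptor, fell by 1.71. Of 22 genes of JAK-STAT signalling, Stat4 was the 1 member called in both fits.

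**Figure D3:**
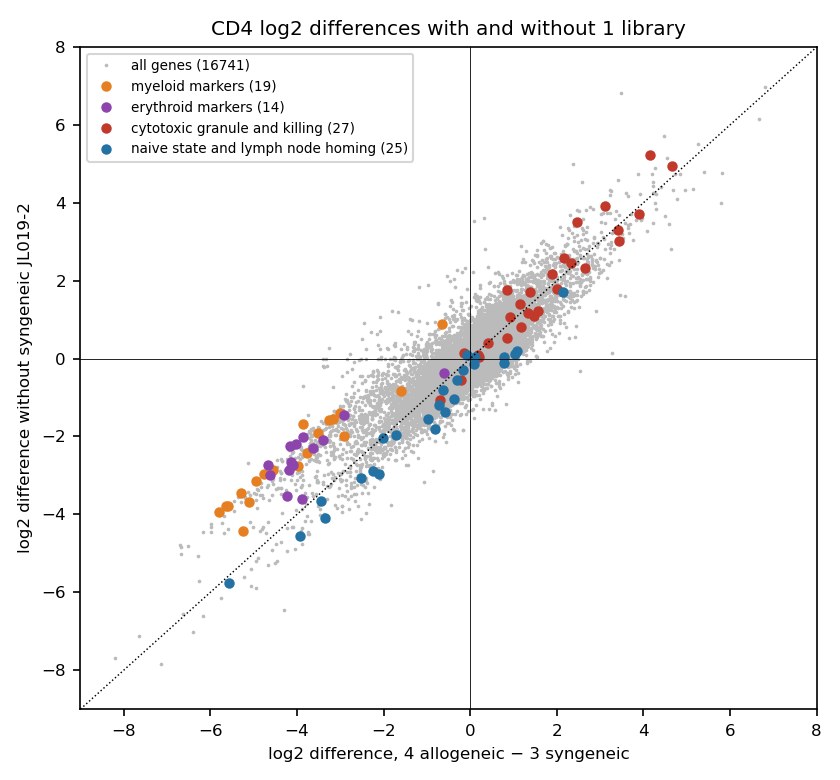
The log2 difference of each gene with all 7 libraries (horizontal axis) and without syngeneic JL019-2 (vertical axis), with the line of equal values dotted. Myeloid (orange) and erythroid (purple) markers lie left of 0 and mostly above the line, so that they are lower in allogeneic cells and less so without that library; killing genes (red) lie mostly right of 0 and naive genes (blue) mostly below the line.

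The calls among genes of proximal T cell receptor signalling depended on JL019-2. With all libraries 11 of 32 members were higher and 4 lower, and without it 3 were higher and 6 lower. Sla, Ptpn22 and Sh2d2a, which encode an adaptor, a phosphatase and an adaptor that temper or tune the signal, rose in both fits. Ptpn22 had 16820, 16840, 16690 and 16270 against 5278, 1798 and 5294. Ubash3b, Txk, Grap2 and Trat1 fell in both fits. Zap70, the kinase recruited to the receptor, had 8147, 7451, 5802 and 8777 against 4322, 533 and 3154, and its adjusted p went from 0.00444 to 0.0831 (limma) without JL019-2. Of 29 immediate early genes, 5 rose with all libraries and 3 without JL019-2, among them Dusp2 and Cd69, while Nr4a1 and Myc were called in neither fit.

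Few mitosis genes were called, and the DNA replication genes that were called were lower in allogeneic cells. Mki67, a marker of dividing cells, had 5885, 5893, 5226 and 5085 in allogeneic and 6900, 4989 and 5167 in syngeneic cells, against 309 and 330 at day 0. Its log2 difference was -0.03 with an SE of 0.263, and -0.12 without JL019-2. Of 36 mitosis genes 1 was higher and 1 lower, and none and 1 in both fits: Top2a, the topoisomerase of dividing cells, had 5954 to 7883 against 9517 to 11790. Of 36 DNA replication genes, 8 were lower and none higher, 4 in both fits, and the median log2 difference was -0.43. Median centring left 4 lower, and quantile normalisation gave 14. Pole2, a subunit of a replicative polymerase, had 473, 507, 702 and 575 against 1059, 1126 and 1167 (log2 difference -1.0, SE 0.204, limma adjusted p = 0.000979, and -0.99 without JL019-2).

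Of 26 genes of glycolysis and the hypoxia response, 10 rose and 1 fell, 9 and 1 in both fits. Hif1a, the hypoxia factor, had 26060, 26150, 27920 and 31670 against 6314, 1250 and 5752 (log2 difference 2.96, SE 0.396, limma adjusted p = 5.09e-06, and 2.21 without JL019-2). The glucose transporters Slc2a1 and Slc2a3 rose by 1.26 and 1.63, and Pdk1, a kinase that holds back pyruvate oxidation, fell by 1.24. For Pdk1 syngeneic JL019-2, at 1878, was within the allogeneic range of 1389 to 2294, and the log2 difference was -1.84 without that library. Of 22 genes of fatty acid oxidation, 7 rose and none fell, 5 in both fits. Slc25a20, the mitochondrial carnitine carrier, had 3339 to 4188 against 1204 to 1295 (log2 difference 1.56, SE 0.163, limma adjusted p = 9.96e-08, and 1.57 without JL019-2), while the call of Cpt1a was lost without JL019-2 (limma adjusted p = 0.0744). Of 32 genes of sterol and fatty acid synthesis, 7 fell and none rose, 4 in both fits. Fdps, an enzyme of the mevalonate pathway, had 1400, 1180, 1649 and 1684 against 3144, 5664 and 2831, with no overlap (log2 difference -1.33, SE 0.261, limma adjusted p = 0.000616, and -1.03 without JL019-2). None of 40 genes of oxidative phosphorylation was called in either fit, and of 28 genes of the amino acid and stress response none was called with all libraries and 1 without JL019-2.

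Type I interferon-stimulated genes that were called were mostly lower. Of 39 type I interferon-stimulated genes, 9 were lower and 1 higher, 5 and 1 in both fits, with a median log2 difference of -0.52. Usp18, a brake on type I interferon signalling, had 1195, 1022, 1238 and 1161 against 4163, 3112 and 1997 (log2 difference -1.36, SE 0.212, limma adjusted p = 4.06e-05, and -1.32 without JL019-2). The syngeneic libraries of experiment JL019 were the highest for Usp18, Oasl1, Ifit3b and Ifi44, and JL027 lay between them and the allogeneic ones. Isg15 had 837 to 1151 against 2113, 2896 and 1083, overlapped between the groups and was not called without JL019-2. Ifi204 went the other way, with 1378 to 2379 against 217, 1233 and 180. Of 30 genes inducible by interferon-gamma, 3 rose and 4 fell, 1 and 3 in both fits. Over all genes 6.69% were called higher and 7.91% lower, and 4.28% and 4.54% in both fits. Without JL019-2, 1 member of this list rose and 6 fell, but 5 rose and 1 fell after median centring. Gbp, Tgtp and Ifit genes have close copies, and their single values are uncertain.

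Of 34 apoptosis genes, 13 rose and 1 fell, 10 and 1 in both fits. Bcl2, the survival factor of resting lymphocytes, had 2774, 3427, 2577 and 2520 against 7463, 2637 and 7751. JL019-2 was within the allogeneic range, and the log2 difference was -0.93 with it and -1.44 without it, called both times. Pmaip1, which encodes the death inducer NOXA, rose by 2.19, Bbc3, which encodes PUMA, by 2.22 and Bcl2l11, which encodes BIM, by 1.60. Bcl2a1b, a pro-survival gene with near-identical copies, rose by 2.17. For Bbc3 and Bcl2l11 the allogeneic libraries differed by experiment, with 1141 and 729 of Bbc3 in JL019 and 356 and 448 in JL027. Of 21 S100, annexin and galectin genes, 8 rose and none fell, 7 in both fits, with S100a6 at 22240 to 31050 against 4088 and 5688 in syngeneic JL019-1 and JL027 and 25220 in JL019-2.

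The T cell receptor was read from the same cDNA by nested PCR and gives a readout that the choice of libraries did not use. For the beta chain (TRB) the 7 libraries held 10864 to 19911 reads, and each was drawn down 20 times to 8194 reads, the lowest total of any library. The draws held 3282, 3139, 3076 and 2962 clonotypes (same V, J and joining peptide) in allogeneic and 5753, 5105 and 3581 in syngeneic libraries, against 6990 and 7036 at day 0. Clonality is 0 when all clonotypes are equal and 1 when a single one holds all reads. Its mean over the allogeneic libraries was 0.113 ± 0.00943 (SD, n = 4), and over the syngeneic ones 0.0528 ± 0.0226 (SD, n = 3). The exact two-sided permutation test gave p = 0.0571, the smallest that 4 against 3 libraries allow, and the difference of 0.0604 became 0.0561 without JL019-2. The 10 largest clonotypes took 9.49% to 14.6% of reads in allogeneic libraries, 5.59%, 6.77% and 10.8% in syngeneic ones and 0.703% and 0.636% at day 0. By TRB the groups did not overlap in clonality. By the alpha chain (TRA) the syngeneic JL027 library, at 0.121, was within the allogeneic range of 0.119 to 0.134, and its 1793 clonotypes were fewer than the 1803 to 1939 of the allogeneic libraries. The difference in clonotypes was -1698 by TRB, -609.9 by TRA (exact permutation p = 0.286) and -2775 by TRB without drawing down (exact permutation p = 0.171). PCR reads without molecular tags are not independent molecules.

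Use of TRB V segments also separated the groups. Of 19 segments with a mean share of at least 0.5%, 3 (15.8%) were higher in all allogeneic than in all syngeneic libraries and 11 (57.9%) were lower. TRBV16 took 56.0%, 56.6%, 55.5% and 58.6% of reads in allogeneic libraries, 31.3%, 36.3% and 28.2% in syngeneic ones and 39.6% and 39.4% at day 0. TRBV26 took 7.16%, 6.93%, 5.41% and 5.80% against 1.85%, 1.17% and 1.33%, with 1.11% and 1.04% at day 0. TRBV23 took 2.02% to 2.68% against 0.869%, 0.411% and 0.401%. TRBV31 was the segment that was lower by most percentage points, with 7.97%, 7.23%, 7.27% and 6.76% against 20.1%, 18.4% and 20.7%. Syngeneic libraries held 2.86% to 3.54% of TRBV1, near the day 0 values of 3.07% and 3.25%, where allogeneic ones held 0.763% to 1.26%. Syngeneic JL027 had 8.95% of TRBV17 where the other CD4 libraries of these groups had 1.10% to 3.91%. As a share of clonotypes rather than reads, TRBV16 was 32.1%, 32.2%, 32.7% and 33.6% in allogeneic libraries, 23.1%, 24.1% and 16.2% in syngeneic ones and 33.3% and 32.3% at day 0, so that the allogeneic share was then at the day 0 level. TRBV26 was 16.1%, 15.8%, 13.7% and 13.2% of clonotypes against 2.45%, 1.81% and 2.89%, with 1.34% and 1.31% at day 0. Shares sum to 100%, so a higher share of 1 segment lowers the others, and the PCR's own preference between segments is part of each share. For each segment without overlap the exact two-sided permutation p was 0.0571, or 0.0776 adjusted over the 19 segments, which 4 against 3 libraries cannot bring under 0.05.

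The RNA table, counted without the nested PCR but from the same cDNA, had the genes of these 3 segments called higher: Trbv26 (log2 difference 2.85, SE 0.351, limma adjusted p = 1.45e-06), Trbv23 (2.44, SE 0.485, limma adjusted p = 0.000728) and Trbv16 (1.39, SE 0.318, limma adjusted p = 0.00283). Trbv26 had 2247, 1818, 1899 and 2111 against 362, 148 and 406. Without JL019-2 the differences were 2.39, 2.06 and 1.01, all called, and Trbv31, Trbv17, Trbv2, Trbv13-2 and Trbv13-3 were called lower. With all libraries no gene of a segment that was lower by reads was called, the lowest limma adjusted p being 0.05285, for Trbv17. Trbv1, Trbv4, Trbv5, Trbv13-1, Trbv19 and Trbv20 were called in neither fit. V genes share sequence, and their single values are uncertain. The alpha gene Trav11, which natural killer T cells join to TRAJ18 in an invariant chain, had 0, 0, 0.981 and 78.3 against 212, 77.3 and 69.7, with 463 and 397 at day 0. TRAV11 joined to TRAJ18 made up 5, 1, 0 and 0 of the TRA reads in allogeneic libraries, 7, 295 and 20 in syngeneic ones and 638 and 710 at day 0. In syngeneic JL019-2 this was 2.03% of TRA reads, against 3.52% and 3.44% at day 0 and 0.0277% and 0.0924% in the other syngeneic libraries.

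**Figure D4:**
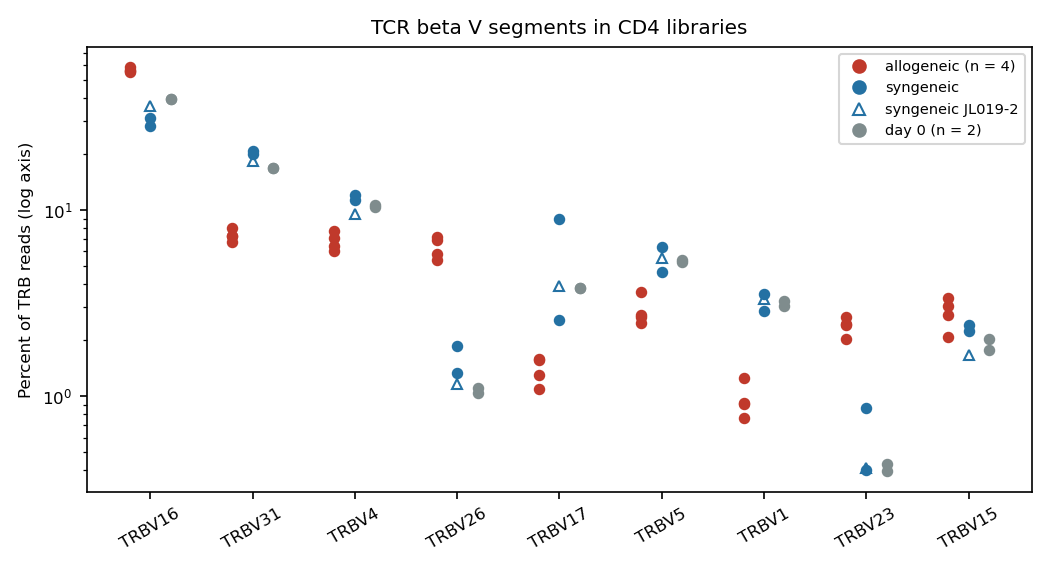
Percent of TRB reads (log axis) of 9 V segments in each CD4 library from allogeneic hosts (red, 4 libraries), syngeneic hosts (blue, 3 libraries, JL019-2 as an open triangle) and before transfer (grey, 2 libraries). TRBV16, TRBV26 and TRBV23 are higher and TRBV31, TRBV4, TRBV17, TRBV5 and TRBV1 lower in every allogeneic than in every syngeneic library; for TRBV15 the groups overlap.

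The same contrast in CD8 cells of these experiments (4 allogeneic and 3 syngeneic libraries) was set beside that of CD4 cells, with a test of the difference between the 2 contrasts. At 779 genes the CD4 difference departed from the CD8 one, 328 (1.96%) with a higher and 451 (2.69%) with a lower value in CD4, and 530 of these also without syngeneic JL019-2 (225 and 305). Median centring gave 429 and 317 in place of 328 and 451. Cxcr6 rose in both, by 4.27 in CD4 and 1.09 in CD8 cells (difference 3.18, SE 0.307, limma adjusted p = 3.35e-07, and 2.91 without syngeneic JL019-2), and its mean in CD8 cells was 26800 ± 6714 (SD, n = 4) against 12480 ± 2481 (SD, n = 3). Cxcr3 rose by 1.99 in CD4 cells and fell by 0.89 in CD8 cells. Pim2, a survival kinase, and Itm2a rose in CD4 cells, by 1.75 and 1.35, and fell in CD8 cells, by 1.92 and 2.34, as did Dop1b. Tbx21 rose in CD4 cells and was not called in CD8 cells, and this difference was called too (3.06, SE 0.556, limma adjusted p = 0.00102, and 2.47 without JL019-2).

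In the other direction, Pdcd1 and Havcr2 rose in both but by less in CD4 cells. For Pdcd1 the log2 difference was 2.88 in CD4 and 7.19 in CD8 cells (difference -4.32, SE 0.429, limma adjusted p = 3.58e-07, and -4.90 without JL019-2). The CD8 cells of syngeneic hosts had little of it, 156 ± 29.9 (SD, n = 3), against 580 to 2016 in the CD4 cells of syngeneic hosts. Gzmk, a granzyme, was 0.21 in CD4 cells, not called, and 5.98 in CD8 cells. Nrp1 rose by 1.72 in CD4 and 4.60 in CD8 cells. Ccr6 fell in CD4 cells, by 3.37. In allogeneic CD8 cells its mean was 38.8 ± 17.1 (SD, n = 4). In CD8 cells from syngeneic hosts it was 4.01 ± 5.27 (SD, n = 3), so near 0 that the fitted difference there depends on the pseudocount. By list, 14 of 36 mitosis genes and 6 of 36 DNA replication genes had a lower difference in CD4 than in CD8 cells and none a higher one, and 7 of 39 type I interferon-stimulated genes had a higher one and none a lower one. Without syngeneic JL019-2 these counts were 12, 5 and 7.

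**Figure D5:**
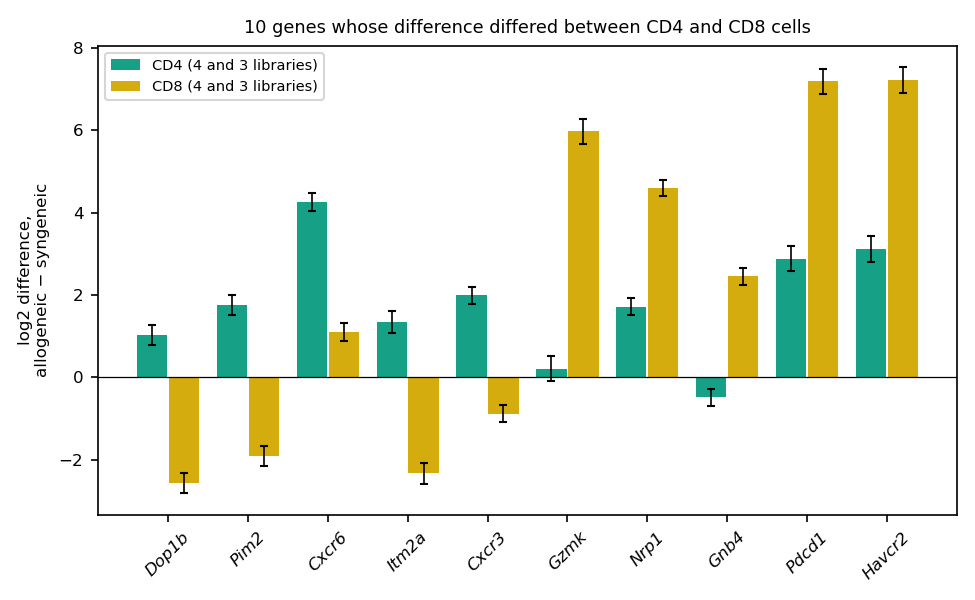
Log2 difference, allogeneic minus syngeneic, in CD4 (green) and CD8 cells (yellow) for the 5 genes with a higher and the 5 with a lower difference in CD4 cells by lowest p. Bars start at 0 and error bars are the SE of the limma fit; Dop1b, Pim2, Itm2a and Cxcr3 point up in CD4 and down in CD8 cells.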

How the data were processed

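The deposited table holds the authors' normalised signal per gene (counts scaled between libraries; the row means equal the table's base mean). Per the submitters' processing notes FastQC 0.11.7, kallisto and DESeq2 were used, with GRCm38 and mm10 named and no role given. The values are not whole, so no count test was used. The authors' deposited receptor tables give read counts per clonotype. The 31 RNA libraries in 10 groups were fitted with limma 3.58.1 in R 4.3.3 (group means, trend and robust empirical Bayes) on log2(value + 1). A minimum mean of 1 removed no gene. The depth of the RNA libraries is unknown, since the deposited scaling removes it. SMARTer cDNA carries no strand, so overlapping genes cannot be told apart. Genes were named by a rule: fixed lineage genes, up to 4 and 2 called members per list and direction, the 10 lowest p each way with a log2 difference of at least 1, no overlap and a call in both fits, and the 5 lowest p each way for the CD4 and CD8 difference. Other genes were named after their values were seen. The libraries and lists were chosen with earlier results of these data known. The fit was tested on simulated data. The prefixes JL019 and JL027 are called experiments in the receptor tables' headers. Promoters are from RefSeq (GRCm38.p6), and their motifs were chosen after the expression values were seen. Some genes are not reported here.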

Additional observations from a re-analysis of the deposited data

Results flagged for a closer look

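In 6 of 160 groups of 4 allogeneic values screened, 1 library was far from the others by Dixon's criterion, which chance meets in about 1 of 20 groups. Replicate JL019-2 was the lowest for Ctla4 (12480), Gzmk (975.9) and Ramp1 (19.65). Replicate JL027-1 was the lowest for Dusp5 (8318), and replicate JL019-1 was the highest for Atp1b1 (31.88) and for Scd1 (3.462, with the other 3 listed at 0).

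At 779 genes the CD4 difference departed from the CD8 difference by limma's test of the difference itself. It was larger in CD4 cells for Dop1b (3.60), Pim2 (3.67), Cxcr6 (3.18), Itm2a (3.69) and Cxcr3 (2.88), and lower for Gzmk (-5.76), Nrp1 (-2.88), Gnb4 (-2.95), Pdcd1 (-4.32) and Havcr2 (-4.12), all on the log2 scale and called with and without CD4 syngeneic replicate JL019-2.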

How the results depend on the processing

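No called gene among the 139 named changed sign in any of 23 alternatives, and 94 of the 130 called were called in each alternative that used both experiments. Most of these genes were named for a low p in the main fit, some also for no overlap. Part of this stability thus follows from how they were chosen. Without CD4 syngeneic replicate JL019-2, 15 of the 130 lost their call, with only the groups compared 29, after median centring 7, within experiment JL019 27 and within JL027 69. Fits of only the groups compared called 1101 genes for CD4 cells and 494 for the difference from CD8 cells, and array weights, whose estimation did not converge, called 3824 and 4089 (3843 and 782 without JL019-2). Within experiment JL019 there were 1406 calls (723 without JL019-2), and within JL027 340; the last 2 counts rest on 1 syngeneic library each, assumed to vary like the others. Leaving out 1 library gave 1817 to 2576 calls for CD4 cells and 535 to 991 for the difference. Centring on medians moved the median of all genes from -0.00 to 0.11 and the split from 1120 higher and 1325 lower to 1441 and 1042 (329 and 325 for the difference after quantile normalisation, 429 and 317 after centring). The experiment as a replicate block gave 2450 and 801 calls, and a replicate block by recipient (fitted correlation 0.145) 2449 and 1123; neither moved a count by over 1.5 times. Allogeneic and syngeneic libraries of the same experiment correlated in their deviations from group means at -0.107 to 0.186, and those of different experiments at -0.253 to 0.141. Deviations within a group are not independent and JL019-2 stood apart, so these values cannot decide whether the shared prefix pairs libraries. TRA in place of TRB gave 5 V segments without overlap in place of 14. Leaving out 1 library gave a TRB clonality difference of 0.0519 to 0.0732, a difference in clonotypes of -2314 to -1228, and 14 to 16 segments. DESeq2 and edgeR were not run, since no unnormalised counts were used here.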
